A study of Mus musculus with 441 samples.

Results

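The genes described here are the cytosolic ribosomal protein genes, which encode the proteins of the ribosome in the cytoplasm. They were chosen by symbol: all names that start with Rpl or Rps followed by a number, with Rplp0, Rplp1, Rplp2 and Rpsa added and the Rps6k kinases left out. The rule gave 84 of 21001 names in the table of bulk RNA-seq, 84 of 22392 in the table of single mouse embryonic stem cells (mESCs) and 83 of 18873 in the table of single neural precursor cells (NPCs), which does not list Rpl3l. Of the 84, 52 name proteins of the large (60S) subunit and 31 proteins of the small (40S) subunit. The remaining one, Rps19bp1, met the rule by its name alone, since it encodes a nucleolar protein that binds Rps19. Among the 83 ribosomal proteins, 76 are called core members below, and 7 are paralogues with a near copy among them: Rpl3l, Rpl7l1, Rpl10l, Rpl22l1, Rpl36al, Rpl39l and Rps27l.

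All mESC groups were grown with LIF. The first group was a Dgcr8 knockout line made in the v6.5 background and grown in serum+LIF. Dgcr8 is the partner of Drosha that is needed to make most microRNAs, and per the labels the line lacks mature microRNAs. The second group was the v6.5 line in 2i+LIF, a medium with inhibitors of the kinases MEK and GSK3 added to LIF. The third group was nestin-positive NPCs derived from v6.5 cells, and the reference for all was v6.5 in serum+LIF. Bulk RNA was sequenced as 2 knockout libraries, 1 2i library and 2 serum libraries. Single cells came from microfluidic chips and numbered 84 knockout cells, 94 2i cells, 54 NPCs, and 90 and 93 serum cells on plates 1 and 2. ChIP-seq had 1 library per mark for knockout, 2i and serum mESCs. The knockout is set against v6.5 as 1 line against another. In 2i the medium and the inhibitors changed together, so they cannot be told apart. Cells of a plate are not replicates, so a plate counts as 1 sample.

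A ribosome holds 1 copy of nearly every core protein, so cells make these proteins in near-equal numbers, and their mRNAs are among the most abundant of dividing cells. Their promoters mostly start transcription at a C within a run of C and T. That run becomes the 5′ end of the mRNA, the terminal oligopyrimidine (TOP) tract, through which growth signals set how strongly the mRNAs are translated. Several vertebrate paralogues are known for restricted use in tissues, such as Rpl10l and Rpl39l in the male germ line and Rpl3l in heart and skeletal muscle, in mice.

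The start regions of 7 members are shown because the results turn on these genes: Rps2 and Rpl13 were highest in knockout against serum, Rps27l was lowest and stands beside its near copy Rps27, Rps15a had the lowest level of all core members, and Rpl39l and Rpl10l varied most between cells. Each line holds 60 bases, 45 before the annotated RefSeq start and 15 from the start on, read 5′ to 3′ on the strand of the gene in GRCm38.p6, which is not the build of the deposited files (mm9). Capitals mark the longest run of C and T that touches the 10 bases on either side of the start.
Rps2 (chr17:24720018-24720077, plus strand): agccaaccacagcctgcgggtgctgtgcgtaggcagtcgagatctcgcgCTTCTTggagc
Rpl13 (chr8:123102305-123102364, plus strand): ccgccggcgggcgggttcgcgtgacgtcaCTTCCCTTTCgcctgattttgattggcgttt
Rps15a (chr7:118116133-118116192, minus strand): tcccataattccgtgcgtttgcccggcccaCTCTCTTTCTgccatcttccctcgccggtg
Rps27l (chr9:66946041-66946100, plus strand): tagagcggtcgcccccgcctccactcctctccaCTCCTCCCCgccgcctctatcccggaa
Rps27 (chr3:90213634-90213693, minus strand): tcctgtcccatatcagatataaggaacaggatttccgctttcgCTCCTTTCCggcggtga
Rpl39l (chr16:10170183-10170242, plus strand): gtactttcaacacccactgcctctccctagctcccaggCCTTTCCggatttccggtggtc
Rpl10l (chr12:66284387-66284446, minus strand): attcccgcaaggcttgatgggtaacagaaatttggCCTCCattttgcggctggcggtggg

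The run was 10 bases long in Rpl13 and Rps15a, 9 in Rps27l and Rps27, 7 in Rpl39l, 6 in Rps2 and 5 in Rpl10l. Relative to the annotated start, it began at -16 in Rpl13, -15 in Rps15a, -12 in Rps27l and -10 in Rpl10l. It began at -7 in Rpl39l, -2 in Rps27 and 4 in Rps2. Only the run of Rps27 crossed the annotated start, so the capitals were not shown to be TOP tracts. Of 17491 protein-coding genes in the same RefSeq table, 3369 (19.3%) had such a run of at least 7. The table held promoters of 63 of the 84 members, so no share over the members is given. The shortest run of the 7 was that of Rpl10l, one of the most variable members between cells. The longest included that of Rps15a, whose SD over cells stood furthest below that of genes of like level. In the mESC plates the SD of Rps15a itself was above the median of the members. These letters are a description of the windows and were not tested against the values.

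Values are TPM, a share of transcripts corrected for length, and tests used log2(TPM + 1). TPM keeps no record of read numbers, so the depth is unknown. The number of genes at TPM 1 or more was 11057 and 10820 in the knockout libraries, 8991 in the 2i library, and 8367 and 7562 in the serum libraries. In single cells its median was 9318 in knockout, 9974 in 2i, 7368 in NPCs, and 7780 and 7648 on the serum plates. The targeted gene Dgcr8 had 4.03 and 2.2 TPM in knockout, 4.66 in 2i, and 10.6 and 10.3 in serum, with a log2 change of -1.51 (SE 0.28; limma, Benjamini-Hochberg adjusted p = 3.58e-04) in knockout against serum. All 8 pluripotency markers examined reached TPM 1 in each mESC group, and 6 of 7 neural markers did so in NPCs. In the NPC plate mean all 8 pluripotency markers also reached TPM 1, with a sum of 718 TPM. That sum was 23402.5 in knockout cells, 18371 in 2i cells, and 8404 and 12328 on serum plates 1 and 2. Of 5 primitive endoderm markers, 3 reached TPM 1 in NPCs and 0 in any mESC plate. Neural precursor markers summed to 93.7 and 87.04 TPM in bulk knockout, with 2 of 6 at TPM 1 in each, 21.3 in 2i, and 4.38 and 4.18 in serum, and to 160, 93.3, 14.3 and 16.4 in knockout cells, 2i cells and the cells of serum plates 1 and 2. Trophoblast markers summed to 11.9 and 8.52 TPM in bulk knockout, 6.96 in 2i, and 111 and 136 in serum, and to 21.6 in knockout cells, 19.2 in 2i cells, and 29.7 and 33.3 in serum cells. The defining trophoblast marker Cdx2 was listed at 0 in 4 of the 5 bulk libraries and in all 4 mESC plates. The neural and trophoblast sums moved with the comparisons between groups, and their part in the results below was not tested. Sox2 is on both the neural and the pluripotency list, so the neural sums are not purely neural. Of the fibroblast markers, which serum+LIF cultures on feeder cells could add, 0 of 6 did so in any bulk mESC group. Fibroblast markers at TPM 1 in NPCs numbered 6 of 8, and their part in the NPC values below was not tested.

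Ribosomal protein mRNAs made up 16.7% and 17.9% of all TPM in the knockout libraries, 23.3% in the 2i library, and 23.7% and 23.9% in the serum libraries. The knockout libraries both lay below the other 3, which lay close together. The mean was 17.3 ± 0.809% in knockout and 23.8 ± 0.197% in serum (SD, n = 2 each), and an exact two-sided permutation test gave p = 0.333, the smallest that 2 against 2 libraries allow. The large subunit took 10.3% and 10.9% of TPM in knockout, 12.7% in 2i, and 13.6% in both serum libraries. The small subunit took 6.43% and 6.95% in knockout, 10.6% in 2i, and 10.1% and 10.3% in serum. Both subunits thus had a lower share in each knockout library than in each serum library. In bulk, fewer cells of a type and less RNA per cell cannot be told apart.

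In single cells the order was another. Ribosomal proteins took 16.5 ± 1.95% of TPM in knockout cells (SD over n = 84 cells), 13.6 ± 1.47% in 2i cells (n = 94), 10.4 ± 3.77% in NPCs (n = 54), 13.1 ± 2.72% in serum cells of plate 1 (n = 90) and 16.7 ± 2.72% in those of plate 2 (n = 93). The knockout plate lay between the serum plates, which differed from each other by more than knockout differed from plate 2. The 2i plate also lay between them, close to plate 1. NPC levels come from a table of their own and are given beside the others without a test. Across NPCs the share ran between 2.60% and 20.2%. The ratio of large to small subunit TPM was alike between plates, with a median over cells of 1.31 in knockout, 1.23 in 2i, 1.24 in NPCs, and 1.28 and 1.25 on the serum plates. Single 2i cells ran between 1.03 and 2.17. The bulk libraries were less alike. In bulk knockout the large subunit took 10.3% and 10.9% beside 6.43% and 6.95% for the small. In bulk serum it took 13.6% in both libraries beside 10.1% and 10.3%. Across cells of a plate, the share and the number of detected genes had a Spearman rho of -0.23 in knockout, 0.05 in 2i, 0.17 in NPCs, and 0.49 and 0.46 on the serum plates, values that share library depth between both measures.

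**Figure D1:**
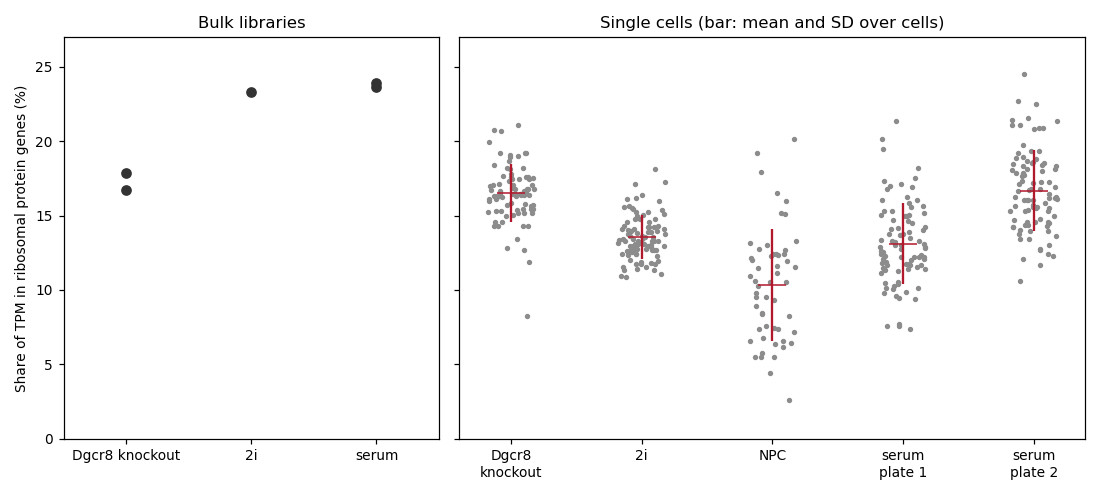
Share of all TPM taken by cytosolic ribosomal protein genes (y axis, percent), in bulk libraries and in single cells of knockout, 2i, NPC and serum cultures; each point is a library or a cell, and bars are mean and SD over cells. In bulk the knockout libraries, at 16.7% and 17.9%, lie below the 2i and serum libraries, while in cells the knockout plate mean of 16.5% lies between the serum plate means.

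In bulk, most ribosomal protein genes fell in Dgcr8 knockout against serum while a smaller set rose, a few of them steeply. Of the 83 members tested (Rpl3l was under a mean TPM of 1), 55 fell, 13 rose and 15 did not pass limma's test at a Benjamini-Hochberg adjusted p of 0.05, with a median log2 change of -0.69. Across all 10081 genes tested, 11.7% fell, 62.5% rose and 74.3% passed in either direction, with a median of 0.92. The median of all genes was thus displaced upward, beside the higher number of detected genes in knockout, whose part in it was not tested. After centring on the median gene, 71 members fell and 3 rose, with a median of -1.61, against 30.2% and 28.3% of all genes. With quantile normalisation 46 fell and 19 rose, with a median of -0.32, so the family's median was below 0 under each scaling. The values of knockout and serum libraries did not overlap for 58 members below serum (15.4% of all genes) and 18 above it (71.2%).

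A larger share of small-subunit than of large-subunit genes fell. Of 31 small-subunit members, 25 fell and 2 rose, with a median log2 change of -0.78. Of 51 large-subunit members, 30 fell and 10 rose, with a median of -0.62. Between the core members alone the medians were -0.77 for 30 small-subunit genes and -0.56 for 46 large-subunit genes, and no test of the difference between the subunits was made.

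The steepest fall was that of Rps27l, a p53-induced paralogue of the small-subunit protein Rps27. Rps27l had 120 and 121 TPM in knockout, 1624 in 2i, and 1348 and 1308 in serum. The knockout libraries stood far below all others, with a log2 change against serum of -3.45 (SE 0.11, adjusted p = 6.06e-10). Rps27 itself had 1841 and 1940 TPM in knockout, 3852 in 2i, and 3866 and 3889 in serum, a log2 change of -1.04 (adjusted p = 4.98e-07). Both fell, the paralogue by more.

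Among large-subunit genes, Rpl35a had 396 and 364 TPM in knockout, 2253 in 2i, and 2650 and 2659 in serum, with a log2 change of -2.80 (SE 0.10, adjusted p = 9.88e-10). Rpl5, which binds the smallest ribosomal RNA and with Rpl11 can hold Mdm2, had 464 and 485 TPM in knockout, 2703 in 2i, and 3308 and 2977 in serum. Its log2 change was -2.72 (SE 0.099, adjusted p = 1.18e-09). Both genes were low only in the knockout libraries among the 5. Rpl35, at the exit of the tunnel for the nascent chain, had 1576 and 1666 TPM in knockout, 9940 in 2i, and 8329 and 8318 in serum, a log2 change of -2.36. Rpl38, known in mice for its role in translating Hox mRNAs, had 396 and 413 TPM in knockout, 1717 in 2i, and 1849 and 1858 in serum, a log2 change of -2.19. None of these 4 genes passed the test in 2i against serum (adjusted p between 0.0563 and 0.526).

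Among small-subunit genes, Rps25, needed for initiation at several viral internal entry sites, had 494 and 473 TPM in knockout, 3028 in 2i, and 2765 and 2592 in serum. Its log2 change was -2.47 (SE 0.096, adjusted p = 1.95e-09). Rps21 had 208 and 223 TPM in knockout, 767 in 2i, and 1165 and 1139 in serum, a log2 change of -2.42 in knockout and -0.59 in 2i (adjusted p = 0.00672). Rps7 had 736 and 709 TPM in knockout, 2499 in 2i, and 3131 and 3168 in serum, a log2 change of -2.12. For each gene the knockout libraries lay close together and far below the rest.

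The rises were led by Rps2, a small-subunit protein at the channel where the mRNA enters. Rps2 had 3428 and 5918 TPM in knockout, 554 in 2i, and 196 and 299 in serum. Its log2 change was 4.21 in knockout against serum (SE 0.23, adjusted p = 2.05e-08) and 3.02 in knockout against 2i. Rps2 was also the core member with the widest gap between replicates, 0.79 on the log2 scale between the knockout libraries and 0.61 between the serum libraries, both far smaller than the gap between groups. The other small-subunit rise was Rps10, with 532 and 592 TPM in knockout, 278 in 2i, and 231 and 248 in serum, a log2 change of 1.23.

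Large-subunit rises included those of Rpl13, Rpl27a, Rpl4, Rpl22, Rpl10l, Rpl13a, Rpl36, Rpl23 and Rpl28. Rpl13 had 9509 and 11096 TPM in knockout, 1825 in 2i, and 2173 and 2479 in serum, a log2 change of 2.15 (SE 0.097, adjusted p = 5.96e-09). Rpl27a had 701 and 739 TPM in knockout, 392 in 2i, and 197 and 196 in serum, a log2 change of 1.87. Rpl4, which lines the exit tunnel, had 11210 and 11954 TPM in knockout, 3722 in 2i, and 5516 and 4819 in serum, a log2 change of 1.17. Rpl13 and Rpl4 thus rose in knockout and fell in 2i against serum, by 0.35 and 0.47 on the log2 scale. Rps19bp1, the nucleolar protein outside the ribosome, also rose, by 1.14, with 11.6 and 13.2 TPM in knockout, 6.52 in 2i, and 4.97 and 5.15 in serum. After centring on the median gene, only Rps2, Rpl13 and Rpl27a of the 13 still passed as rises. Rpl4, Rpl22, Rps10 and Rps19bp1 were among those that no longer passed, with changes between 0.15 and 0.31, and Rpl10l turned to -0.18. Rpl13a, Rpl36, Rpl23 and Rpl28 had risen by less than the 0.92 of the median gene.

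**Figure D2:**
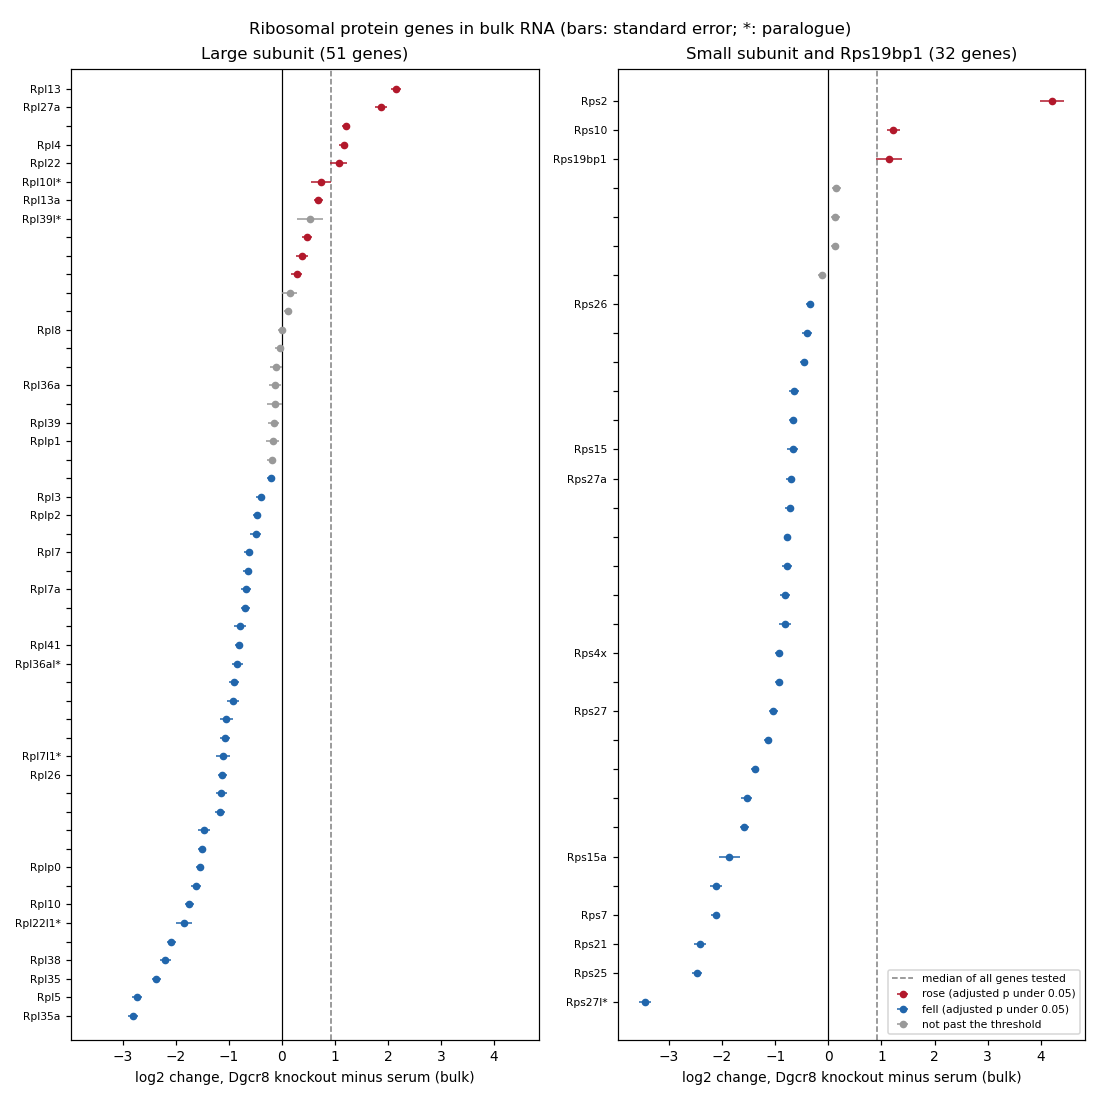
Log2 change of each tested member in bulk, Dgcr8 knockout minus serum (limma on log2(TPM + 1), bars are SE), by subunit, with the median of all genes dashed and some of the members named. Most members lie below 0, with a median of -0.69, while Rps2 at 4.21 and Rpl13 at 2.15 stand far above and Rps27l at -3.45 is the lowest.

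The stalk, on which translation factors dock, is built of Rplp0 with Rplp1 and Rplp2. Rplp0 had 4810 and 4753 TPM in knockout, 9555 in 2i, and 13131 and 14680 in serum, where it was the most abundant core member. Its log2 change was -1.54 in knockout (SE 0.075, adjusted p = 9.89e-09) and -0.54 in 2i (adjusted p = 7.75e-04). Rplp2 had 2956 and 3146 TPM in knockout, 3038 in 2i, and 4226 and 4217 in serum, and fell by 0.47 in each comparison. The fall of Rplp2 in knockout did not pass with quantile normalisation (-0.09, adjusted p = 0.383) or without limma's trend (adjusted p = 0.06). In 2i, the falls of Rplp0 and Rplp2 did not pass with no filter on low values (adjusted p = 0.0608 and 0.0511) or without the trend (0.137 and 0.177). Rplp1 had 2240 and 2528 TPM in knockout, 2889 in 2i, and 2326 and 3070 in serum, and its groups overlapped. The 3 stalk genes thus changed by unequal amounts.

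In 2i against serum the bulk changes were smaller and went both ways. Of 83 members, 17 rose, 20 fell and 46 did not pass, with a median log2 change of -0.08, and 0.00 after quantile normalisation. Among all genes tested 20.4% rose, 11.8% fell and 32.1% passed in either direction, with a median of 0.20. After centring on that median, 6 members rose and 19 fell, against 15.5% and 17.5% of all genes. The 2i library lay above both serum libraries for 31 members (51.9% of all genes) and below both for 47 (31.9%). The single 2i library was assumed to vary like the pairs of the other groups. The falls in 2i numbered 11 without serum library 1, 13 without serum library 2, 12 without knockout library 1 and 12 without knockout library 2. They numbered 6 with no filter on low values, beside 10 rises, and 2 without limma's trend, beside 6 rises.

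The 2i rises were led by paralogues. Rpl39l, a paralogue of the tunnel protein Rpl39, had 7.37 and 5.99 TPM in knockout, 12.4 in 2i, and 4.24 and 4.37 in serum, with a log2 change of 1.34 in 2i (SE 0.30, adjusted p = 0.00511, and 0.0542 and 0.0535 without knockout library 1 or 2). Rpl10l had 42.6 and 34 TPM in knockout, 56.2 in 2i, and 22.3 and 22.5 in serum, with a log2 change of 1.29 in 2i (adjusted p = 0.00145). In knockout Rpl10l rose by 0.74 (adjusted p = 0.0043, and 0.111 without knockout library 1), a rise that turned to -0.18 after centring on the median gene and to -0.00245 after quantile normalisation. Rpl36al had 721 and 630 TPM in knockout, 2499 in 2i, and 1209 and 1198 in serum, so that it rose by 1.05 in 2i and fell by 0.83 in knockout. The test of knockout against 2i gave -1.89 (adjusted p = 3.26e-07). Rps2, Rpl27a, Rpl13a, Rps4x and Rps27a completed the 8 largest rises in 2i, at 1.19, 0.99, 0.77, 0.75 and 0.69. Rps2 did not pass without serum library 1 (0.89, adjusted p = 0.138), after centring (adjusted p = 0.101), with no filter on low values (0.217) or without limma's trend (0.0542). Rps27a did not pass after centring (0.49, adjusted p = 0.0517) or without the trend (0.0669).

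Rps4x and Rps27a also moved in opposite directions in the 2 comparisons. Rps4x, encoded on the X chromosome, had 1739 and 1825 TPM in knockout, 5716 in 2i, and 3391 and 3390 in serum, with log2 changes of -0.93 in knockout and 0.75 in 2i. Rps27a, made as a fusion with ubiquitin, had 1953 and 1958 TPM in knockout, 5138 in 2i, and 3307 and 3068 in serum, with log2 changes of -0.70 in knockout and 0.69 in 2i. Both comparisons share the serum libraries, and the direct test of knockout against 2i gave -1.68 for Rps4x and -1.39 for Rps27a.

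Falls in 2i were led by Rpl10, one of the last proteins to join the large subunit. Rpl10 had 1361 and 1394 TPM in knockout, 2503 in 2i, and 4655 and 4588 in serum, with log2 changes of -1.75 in knockout (adjusted p = 9.69e-09) and -0.88 in 2i (adjusted p = 4.44e-05). Its 3 groups were in steps, knockout lowest. Rpl7a had 1805 and 1822 TPM in knockout, 1567 in 2i, and 2793 and 2986 in serum, with log2 changes of -0.67 and -0.88. Rpl8, near the catalytic centre, had 5673 and 6061 TPM in knockout, 3727 in 2i, and 6009 and 5737 in serum, and fell in 2i by 0.66. Rps26, at the channel where the mRNA leaves, had 2958 and 2903 TPM in knockout, 2450 in 2i, and 3726 and 3719 in serum, with log2 changes of -0.35 and -0.60. Without limma's trend Rpl8 and Rps26 did not pass in 2i (adjusted p = 0.0786 and 0.0958), nor did Rps21 (0.106). Set directly against 2i, knockout had 52 members that fell and 13 that rose of 83, with a median of -0.67, where 11.9% of all genes fell, 49.1% rose, 61% passed in either direction and the median was 0.72. Centred on the median gene, 67 fell and 4 rose, against 26.2% and 24.2% of all genes.

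The balance within paralogue pairs differed between groups. Rps27l stood at 6.51% and 6.24% of the TPM of Rps27 in the knockout libraries, 42.2% in 2i, and 34.9% and 33.6% in serum. In plate means the same ratio was 29.5% in knockout cells, 53.8% in 2i cells, 39.2% in NPCs, and 29.3% and 17.5% in serum cells. The bulk gap between knockout and serum was therefore absent in the plate means. Rpl22l1, whose mRNA is known to be repressed by Rpl22 protein in mice, stood at 77.8% and 65.5% of Rpl22 in knockout, 266% in 2i, and 514% and 588% in serum. Rpl22l1 had 78.2 and 67.7 TPM in knockout, 207 in 2i, and 247 and 283 in serum and fell by 1.85, whereas Rpl22 had 100.6 and 103.3 TPM in knockout, 77.8 in 2i, and 48.1 and 48.1 in serum and rose by 1.07. In plate means that ratio was 241% in knockout, 294% in 2i, 463% in NPCs, and 392% and 345% in serum, so knockout was lowest in cells too.

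The germ-line paralogues were minor forms in bulk and in cells. Rpl10l stood at 3.13% and 2.44% of Rpl10 in knockout, 2.25% in 2i, and 0.479% and 0.490% in serum. Rpl39l stood at 0.817% and 0.629% of Rpl39 in knockout, 1.08% in 2i, and 0.392% and 0.444% in serum. In plate means Rpl39l was 5.10% of Rpl39 in knockout, 2.63% in 2i, 0.197% in NPCs, and 0.868% and 0.429% in serum. Knockout and 2i exceeded serum in each case. Rpl7l1, which acts in making the large subunit, stood at 4.45% and 4.09% of Rpl7 in knockout, 4.69% in 2i, and 6.28% and 5.72% in serum. Paralogues share long stretches with their partners and with pseudogenes, and the sources used here do not say how reads with several origins were assigned, so these ratios are uncertain.

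Plate means gave few calls. A plate mean is the mean over the cells of a plate of log2(TPM + 1), and its fit holds 2 serum plates and 1 plate each of knockout and 2i. Of 84 members, 2 rose (Rpl39l and Rpl3l) and 1 fell (Rplp0) in knockout against serum, where 51.4% of all 12397 genes rose, 4.75% fell and 56.1% passed in either direction. The median of the members was 0.04, that of all genes 0.85, and the members' median turned to -0.81 after centring on the median gene and was 0.29 after quantile normalisation. Centred, 1 member rose and 20 fell, against 30.3% and 28.9% of all genes. In 2i against serum, 2 members rose (again Rpl39l and Rpl3l) and 0 fell, with a median of -0.07, where 61% of all genes rose, 3.48% fell, 64.4% passed in either direction and the median was 1.05. Centred, 1 member rose and 40 fell, against 25.6% and 28.1% of all genes. In knockout against 2i, 1 member, Rpl3l, was called as a rise and 0 fell, where 7.31% of all genes rose and 5.61% fell. That call sets 1 plate against 1 and rests on the spread of 2 serum values that are both 0, so no rise is read from it. The test rests on 1 residual degree of freedom. On simulated plate means with 200 of 12397 genes changed, it recovered 2% of 4-fold changes. Far more genes passed in the real plates, which loosens the adjusted threshold, so that rate need not hold for them. A member that was not called in the plates may still have changed.

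Rpl39l had a mean TPM per plate of 66.4 in knockout, 31.2 in 2i, 1.70 in NPCs, and 10.7 and 11.6 in serum. It rose by 3.06 in knockout (SE 0.19, adjusted p = 0.0138) and by 2.30 in 2i (adjusted p = 0.0181). With quantile normalisation the 2i value was 0.93 (adjusted p = 0.113). At TPM 1 or more it was found in 88.1% of knockout cells (exact binomial 95% interval 79.2 to 94.1), 88.3% of 2i cells (80.03 to 94.01), 3.70% of NPCs (0.452 to 12.7), and 48.9% (38.2 to 59.7) and 55.9% (45.2 to 66.2) of serum cells. The interval covers counting of cells only. The serum plates were near each other and the knockout and 2i plates far above them. Rplp0 had a mean TPM of 1533 in knockout, 2483 in 2i, 2284 in NPCs, and 5414 and 4851 in serum. It fell by 1.75 in knockout (SE 0.27, adjusted p = 0.0368), as it did in bulk, and did not pass in the plates with quantile normalisation (-1.35, adjusted p = 0.0986).

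Rpl3l was listed at 0 in every serum cell on both plates, 0 of 90 and 0 of 93 cells, which allows a share of up to 3.33% and 3.23% at 3 cells of the total (exact binomial upper limits 4.02% and 3.89%). It reached TPM 1 in 20 of 84 knockout cells (23.8%, interval 15.2 to 34.3) and in 17 of 94 2i cells (18.1%, interval 10.9 to 27.4). In bulk it had 1.24 and 1.62 TPM in knockout, 0.908 in 2i, and 0 and 0.528 in serum. It entered the plate test only through its knockout and 2i values. Its calls in the plates, that of knockout against 2i included, rest on 2 serum values that are both 0, and no fold is given against them. After centring on the median gene the call in knockout against serum was lost (0.02, adjusted p = 0.932) and that in 2i against serum turned to -0.48. Neither passed with a median over cells, where both were 0.

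**Figure D3:**
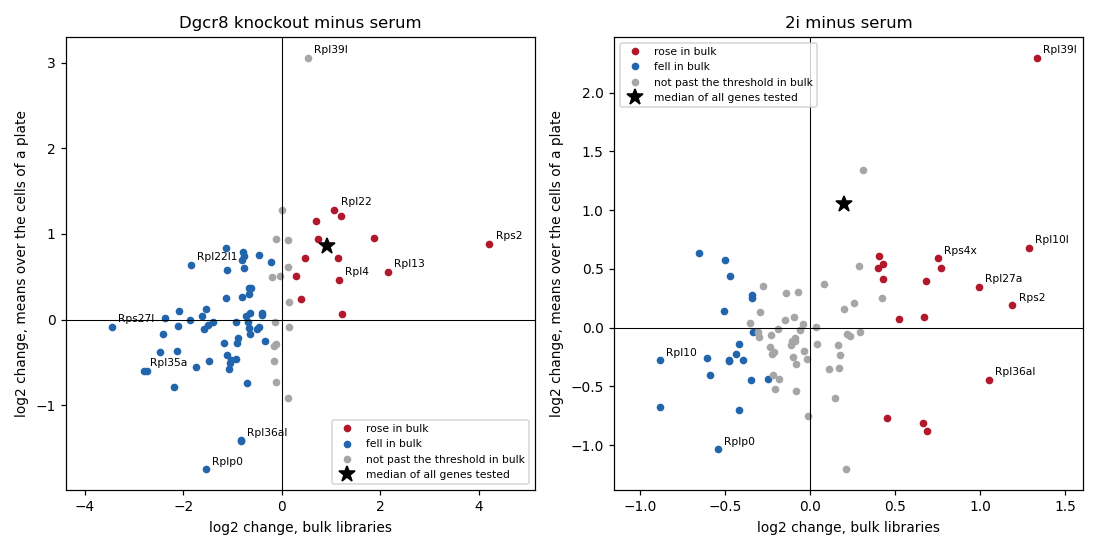
Log2 change of each member in plate means of single cells (y axis) against its log2 change in bulk (x axis), for knockout minus serum and for 2i minus serum; each point is a gene, coloured by its bulk call, and the star is the median of all genes tested. In knockout minus serum the bulk changes run between -3.45 and 4.21, while the plate changes of most members lie near their median of 0.04.

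The bulk changes were met in part in the plates. Of the 13 members that rose in bulk knockout, 12 lay above both serum plates in knockout cells and 1, Rpl23, lay between them. Of the 55 that fell in bulk, 17 lay below both serum plates, 23 between them and 15 above both. Relative to the median gene of the plate comparison, all 55 were lower, and so were 7 of the 13 that rose in bulk. Of the bulk calls in 2i, 20 of 20 falls and 16 of 17 rises were lower than the median gene in the plates. For all members, 36 lay above both serum plates in knockout cells (77.6% of all genes) and 21 below both (15.7%). In 2i cells 25 lay above both serum plates (83.3% of all genes) and 35 below both (11.3%). Rps2 had a mean TPM of 4558 in knockout cells, 2921 in 2i cells, 888 in NPCs, and 3119 and 1974 in serum cells, a log2 change of 0.89 in knockout (adjusted p = 0.225). Rps27l had 932 in knockout cells, 1395 in 2i cells, 910 in NPCs, and 930 and 1079 in serum cells, a log2 change of -0.08 (adjusted p = 0.802). The steepest bulk rise and the steepest bulk fall were therefore not found at that size in single cells.

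The level of a gene in cells and in bulk differed most for a few members. In serum, Rps2 was 3.36 higher in cells than in bulk on the log2 scale and Rps10 2.25 higher, while Rpl8 was 1.97 lower and Rpl35 1.59 lower. In knockout, Rpl39l was 3.13 higher in cells, Rps27l 2.94 and Rpl22l1 2.82, while Rpl4 was 2.01 lower and Rplp0 1.64 lower. The median core member was 0.20 higher in cells than in bulk in knockout, 0.55 lower in 2i and 0.52 lower in serum. The median of all genes at TPM 1 or more in both was 0.85, 1.45 and 0.36 higher. These pairs are chosen as the extremes after their values were seen. Cells and bulk differ in amplification and in table, so the gaps are given without a test. Over the 76 core members, Pearson's r between levels in bulk and in cells was 0.88 in knockout, 0.89 in 2i and 0.83 in serum. Over all genes at TPM 1 or more in both it was 0.89, 0.91 and 0.84, with genes sharing libraries and lengths.

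Levels of core members spread widely although the proteins are needed in equal numbers. How reads with several origins were assigned is not given, and its part in these levels was not tested. In bulk the SD over the 76 log2 levels was 1.69 and 1.70 in knockout, 1.52 in 2i, and 1.60 and 1.59 in serum. In plate means it was 1.21 in knockout, 1.13 in 2i, 1.10 in NPCs, and 1.23 and 1.203 in serum, smaller in each. The median small-subunit gene had 1896 and 1936 TPM in knockout, 2656 in 2i, and 3191 and 3118 in serum. The median large-subunit gene had 1348 and 1316 TPM in knockout, 2344 in 2i, and 2403 and 2578 in serum, lower than the small subunit in each library. In each bulk library and plate the lowest core member was Rps15a, a small-subunit protein, with 8.98 and 9.81 TPM in knockout, 29.5 in 2i, and 36.4 and 37.1 in serum. The highest was Rps19 in bulk 2i with 13131 TPM, Rplp0 in bulk serum, and Rpl41 in all plates. Rpl41, which encodes the shortest of these proteins, had a mean TPM of 9873 in knockout cells, 7191 in 2i cells, 5606 in NPCs, and 7924 and 8676 in serum cells.

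Replicates differed little in bulk and more between plates. The median absolute log2 difference between the replicate libraries over the core members was 0.063 in knockout and 0.080 in serum. A gap over 0.5 was found for 1 of 76 core members in each pair, Rps2, against 12.98% of all genes in knockout and 20.6% in serum. Between the serum plates 21 of 76 core members (27.6%) differed by over 0.5, against 12.99% of all genes, and 63 were higher on plate 2. Rpl23a differed most, with 6482 TPM on plate 2 and 2613 on plate 1, and Rps27a and Rpl39 followed at 1.16 and 1.14 on the log2 scale. A plate gap of this kind stands in the spread of each plate test.

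From cell to cell the core members were steadier than other genes of like level. The SD of log2(TPM + 1) over cells had a median over members of 0.306 in knockout, 0.241 in 2i, 1.08 in NPCs, and 0.361 and 0.289 on the serum plates. A running median over genes that are not members, taken at the level of each member, was 0.516 in knockout, 0.342 in 2i, 1.40 in NPCs, and 0.646 and 0.510 in serum. The SD was below that of genes of like level for 76 of 76 core members in knockout, 74 of 76 in 2i, 70 of 76 in NPCs and 76 of 76 on each serum plate. At the top of the range few other genes exist, so many members share 1 comparison value. Every core member reached TPM 1 in every cell, apart from Rpl36a in NPCs. Large and small subunits hardly differed in this, with core medians in knockout of 0.303 and 0.301. Rps15a, the lowest by level, stood furthest below genes of like level in every plate, by 0.99 in knockout, 0.56 in 2i, 1.36 in NPCs, and 0.46 and 0.45 in serum.

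The most variable members were paralogues. Rpl10l had an SD of 2.35 in knockout, 2.40 in 2i, 1.79 in NPCs, and 2.75 and 1.96 on the serum plates, above genes of like level by 1.10, 1.497, 0.28, 1.79 and 1.05. It reached TPM 1 in 89.3% of knockout cells (interval 80.6 to 94.98), 86.2% of 2i cells (77.5 to 92.4), 20.4% of NPCs (10.6 to 33.5), and 81.1% (71.5 to 88.6) and 90.3% (82.4 to 95.5) of serum cells. Rpl39l had an SD of 2.29 in knockout, 1.89 in 2i, 1.05 in NPCs, and 2.18 and 2.13 in serum. Both were thus detected in most cells of the mESC plates (Rpl39l in about as many serum cells as not) yet at levels that varied far more than those of their partners. In 2i, the core members Rps2 and Rpl30 also lay above genes of like level, by 0.27 and 0.26, with an SD of 0.611 for Rps2.

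**Figure D4:**
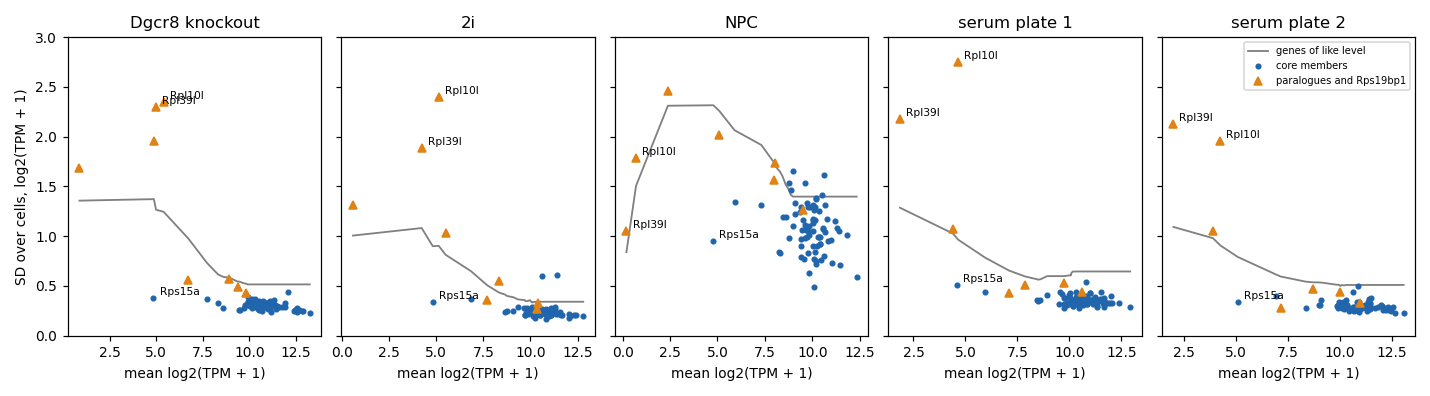
SD of log2(TPM + 1) over cells (y axis) against mean level (x axis) in each plate, with core members as dots, paralogues and Rps19bp1 as triangles and the running median of other genes as a line. The core members lie under the line in knockout and serum, 76 of 76 each, while Rpl10l and Rpl39l lie above it.

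Core members also varied together from cell to cell. The mean Spearman rho over all pairs of the 76 core members was 0.276 in knockout, 0.323 in 2i, 0.487 in NPCs, and 0.607 and 0.566 on the serum plates. For other genes of like level it was 0.020 in knockout, 0.015 in 2i, 0.147 in NPCs, and 0.022 and 0.016 in serum. Pairs within the large subunit, within the small subunit and across subunits gave nearly equal values, 0.267, 0.292 and 0.278 in knockout and 0.605, 0.612 and 0.606 on serum plate 1. Members share the cell and its total, so the values are a description of these plates.

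ChIP-seq counts in a 1000-base window per gene, whose place relative to the gene is not stated, were divided by the total over all windows of the library and are given as CPM. There was 1 library per mark and culture, so no test was made. Core members carried far more RNA polymerase II than the median window, with median CPM of 198 in knockout, 236 in 2i and 256 in serum, against 19.61, 19.96 and 17.74 over all 23167 windows. H3K4me3, the mark of active promoters, had a core median of 198 in knockout, 250 in 2i and 232 in serum, against 19.5, 13.2 and 17.8. H3K27ac, a mark of active promoters and enhancers, had 208, 219 and 208, against 15.09, 17.95 and 19.91. H3K27me3, the Polycomb mark, had 22.5, 27.1 and 22.1, against 31.18, 30.99 and 24.54. The input, whole-cell extract, had a core median of 47.9, 51.5 and 45.9, against 39.5, 40.9 and 41.5. Polymerase lay above the 90th percentile of windows for 75 of 76 core members in knockout and for all 76 in 2i and in serum.

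Polymerase and H3K4me3 were somewhat lower over core members in knockout than in serum. The median log2 ratio of knockout to serum was -0.28 for polymerase, with 64 of 76 below 0. Windows with at least 10 counts in either library had 0.07 and 45.7% below 0. For H3K4me3 the core median was -0.16, with 67 of 76 below 0, where such windows had 0.19 and 35.5% below 0. For H3K27ac it was 0.07, with 29 of 76 below 0, where such windows had -0.21 and 64.97% below 0. The core median thus lay above the median of such windows for this mark. The 55 members that fell in bulk RNA had a median polymerase ratio of -0.31 and the 13 that rose a median of -0.21, so both sets were below 0. In 2i against serum the core median was -0.10 for polymerase, 0.06 for H3K4me3 and 0.47 for H3K36me3, a mark of transcribed gene bodies. The windows with at least 10 counts in either library had 0.07, 0.05 and -0.02. The input had 0.16 over core members, and the H3K36me3 libraries held 545650 counts in 2i and 502628 in serum.

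Single genes with the largest RNA changes showed small changes at their windows. Rps2 had a polymerase CPM of 524 in knockout, 737 in 2i and 731 in serum, the highest member in serum, with a log2 ratio of knockout to serum of -0.48 beside an RNA change of 4.21. Rpl13 had 408 in knockout, 445 in 2i and 541 in serum, a ratio of -0.41. Rps27l had 145 in knockout, 161 in 2i and 193 in serum, a ratio of -0.41 beside an RNA change of -3.45. The windows of Rps2 and Rpl13 differed in the direction opposite to their RNA, and that of Rps27l in the same direction by far less. Rps15a, lowest in RNA, had a polymerase CPM of 289 in knockout, 364 in 2i and 279 in serum, at the 98.8th percentile of windows in serum.

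The germ-line paralogues differed from this. Rpl10l had a polymerase CPM of 109 in knockout, 83.1 in 2i and 38.8 in serum, from 178, 75 and 59 counts, and an H3K4me3 CPM of 65.9 in knockout, 68.7 in 2i and 18.5 in serum. The log2 ratios of knockout to serum were 1.47 and 1.78. Rpl39l had a polymerase CPM of 44.1 in knockout, 49.9 in 2i and 30.9 in serum, from 72, 45 and 47 counts, and an H3K4me3 CPM of 33.8 in knockout, 40.5 in 2i and 8.36 in serum, with log2 ratios of 0.50 and 1.89. Both had more H3K4me3 in knockout and in 2i than in serum, as was their TPM in each bulk library. Rpl3l had an H3K4me3 CPM of 2.64 in knockout, 1.55 in 2i and 0.784 in serum, from 15, 15 and 12 counts, too few to rank.

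**Figure D5:**
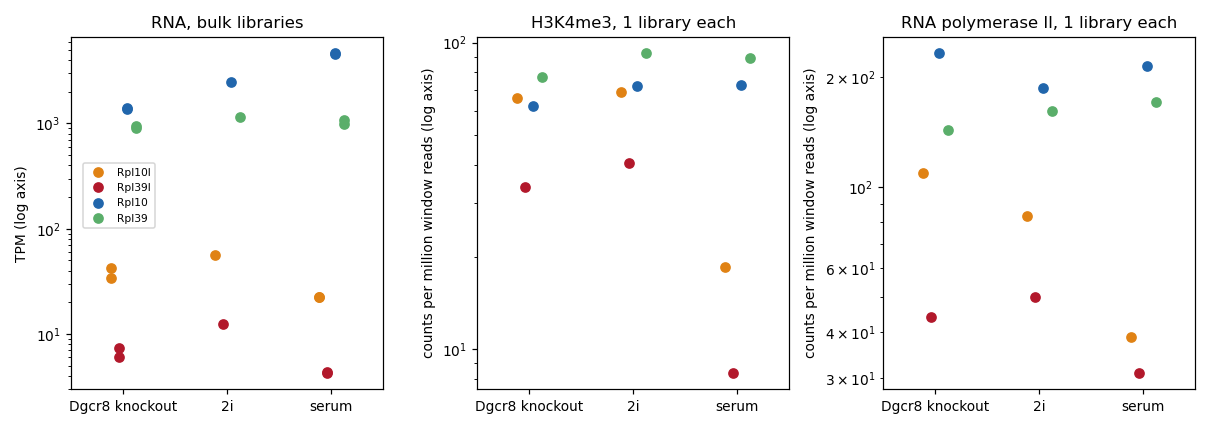
Bulk RNA (TPM, log axis), H3K4me3 and RNA polymerase II in the gene windows (CPM, log axis) of Rpl10l, Rpl39l and their partners Rpl10 and Rpl39 in knockout, 2i and serum; each point is a library. Rpl10l and Rpl39l have more H3K4me3 in knockout and 2i than in serum, for example 65.9, 68.7 and 18.5 for Rpl10l.

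Other genes of the translation machinery were read from lists of known members. Translation factors and further genes with a TOP tract had 9 falls and 5 rises of 18 in bulk knockout against serum, with a median log2 change of -0.54, where 11.7% of all genes fell and 62.5% rose. Centred on the median gene, 14 fell and 1 rose, with a median of -1.46, against 30.2% and 28.3% of all genes. Eef1d, a subunit of elongation factor 1, had 141 and 142 TPM in knockout, 266 in 2i, and 550 and 471 in serum, a change of -1.84. Eef1a1, which brings aminoacyl-tRNA to the ribosome, had 23342 and 25358 TPM in knockout, 6921 in 2i, and 11590 and 10186 in serum, a change of 1.16. In 2i, 11 of the 18 fell and 2 rose, with a median of -0.58, and Eef2, the translocation factor, changed by -1.83. Of all genes 11.8% fell and 20.4% rose in 2i. Centred, 12 of the 18 fell and 2 rose in 2i, against 17.5% and 15.5% of all genes. Of the ribosomal proteins that the symbol rule leaves out, Gnb2l1 (Rack1) fell by 0.95 in knockout and Fau by 0.31.

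Genes for ribosome assembly in the nucleolus had 17 falls and 11 rises of 35 in bulk knockout, with a median of -0.49, against 11.7% and 62.5% of all genes. Centred on the median gene, 23 fell and 3 rose, with a median of -1.41, against 30.2% and 28.3% of all genes. Nip7, which acts in rRNA processing, had 54.5 and 53 TPM in knockout, 132 in 2i, and 233 and 238 in serum, a change of -2.11. Fbl, the methyltransferase of box C/D particles, had 45.7 and 42.3 TPM in knockout, 30.8 in 2i, and 12.4 and 7.80 in serum, a change of 2.05. In 2i, 14 fell and 2 rose, with a median of -0.26, against 11.8% and 20.4% of all genes. Nob1, which matures the small-subunit rRNA, changed by -2.35 in 2i. Genes of RNA polymerase I had 4 falls and 4 rises of 11 in knockout, and 3 falls and 0 rises in 2i. Of all genes 11.7% fell and 62.5% rose in knockout, and 11.8% fell and 20.4% rose in 2i. Centred, those of RNA polymerase I had 7 falls and 1 rise in knockout, and 5 falls and 0 rises in 2i. Of all genes centred, 30.2% fell and 28.3% rose in knockout, and 17.5% fell and 15.5% rose in 2i.

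Mitochondrial ribosomal proteins, which serve the separate ribosome of that organelle, had 29 rises and 21 falls of 76 in bulk knockout, with a median of 0.18 that turned to -0.74 after centring on the median gene, with 12 rises and 47 falls. Of all genes 62.5% rose and 11.7% fell, and centred 28.3% rose and 30.2% fell. In 2i they had 22 rises and 1 fall, with a median of 0.43, and centred 16 rises and 3 falls, with a median of 0.23. Of all genes 20.4% rose and 11.8% fell in 2i, and centred 15.5% rose and 17.5% fell. Their medians lay above those of the cytosolic genes in both comparisons, -0.69 and -0.08, and below the 0.92 of all genes in knockout but above the 0.20 of all genes in 2i. In plate means they had 21 rises and 1 fall in knockout and 44 rises and 0 falls in 2i, with medians of 0.78 and 1.40. Of all genes in the plates 51.4% rose and 4.75% fell in knockout, and 61% rose and 3.48% fell in 2i. Centred, the median in knockout plates turned to -0.08, with 16 rises and 20 falls, and in 2i plates it was 0.35, with 16 rises and 6 falls. Of all genes centred, 30.3% rose and 28.9% fell in knockout plates, and 25.6% rose and 28.1% fell in 2i plates. Mrpl17 had 312 and 327 TPM in knockout, 634 in 2i, and 72.1 and 82.3 in serum, a change of 3.02 in 2i.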

How the data were processed

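Bulk and single-cell RNA-seq and ChIP-seq of mouse cells were used. RNA values were deposited as the natural log of TPM + 1, which the sums after reversing the log bear out. The deposited ChIP table holds raw counts per window of 1000 bases. Bowtie, RSEM and build mm9 are named, per the submitters' processing notes, without versions or roles. The sources used here do not give filters or the treatment of strand and of reads with several origins. From the values, TPM was recovered and log2(TPM + 1) formed.

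Samples were grouped by the labels, cells also by plate. limma 3.58.1 (R 4.3.3), with a trend, was fitted to 5 bulk libraries (10081 genes) and to 4 plate means (12397 genes) at a mean TPM of 1 or more, with residual degrees of freedom of 2 and 1. A Benjamini-Hochberg adjusted p under 0.05, over all genes, was called a change. Groups of 1 sample are assumed to vary like the pairs. The labels do not say that replicates came from separate cultures, so p-values cover only the spread among these libraries or plates, and that spread may be technical. The code was tested on simulated data with 200 genes changed. That is a far smaller share than passed in the real data, so the recovery may differ there. For knockout against serum it recovered 77% of 2-fold and 100% of 4-fold changes in bulk. In plate means it recovered 2% of 4-fold and 97% of 128-fold changes. Gene names changed to dates by spreadsheet software (51 in the mESC table) were left out, and 1093 of the names tested in bulk repeat the values of another. Removing cells below 50% of the median number of detected genes on their plate took out 0 cells, and no doublet caller was run. Variability was set against a running median over genes that are not members. ChIP counts were divided by the total of their library's windows, 1632114, 902007 and 1521860 for polymerase in knockout, 2i and serum.

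Named were the 8 members with the largest change each way per comparison among those called, the paralogue pairs, the stalk proteins, members at 0 in a whole culture, the 5 with the highest and the 5 with the lowest excess variability per plate, and the 3 largest changes each way of the other lists, with a choice among them in the text; further names were chosen after their values were seen, and a few genes that the rule gives are not reported here. The members and lists were chosen with earlier results of these data known. Alternatives changed the scaling, the filter, the pseudocount, the trend and the libraries included.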

Additional observations from a re-analysis of the deposited data

Results flagged for a closer look

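Members that changed in bulk but lay on the other side of both serum plates in single cells were looked at again; the difference between bulk and plates was not tested. In knockout against serum, 15 members fell in bulk and lay above both serum plates in knockout cells, among them Rpl7, Rpl22l1, Rpl26, Rpl41, Rps3 and Rps15. Relative to the median gene of the plate comparison all 15 were lower, but so were 7 of the 13 members that rose in bulk knockout and 16 of the 17 that rose in bulk 2i. In 2i against serum, 4 members rose in bulk and lay below both serum plates in 2i cells: Rpl36a, Rpl36al, Rps13 and Rps27a. Another 6 fell in bulk 2i and lay above both serum plates in 2i cells: Rpl4, Rpl7l1, Rpl8, Rps3, Rps15 and Rpsa. Rpl22l1 is an example, with 523 TPM in knockout cells, 344 in 2i cells, 385 in NPCs, and 248 and 436 in serum cells, beside its bulk fall of 1.85. The median of all genes in the plates was displaced by 0.85 in knockout and 1.05 in 2i.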

How the results depend on the processing

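Over the alternatives run, 85 summary values kept their direction and stayed within the limits set for a move and 24 moved; of the values of single genes, 1173 kept their call, 52 lost it, 25 gained one, 8 moved and 4 reversed. The cause was not tested in any of these. Centring on the median gene gave 3 rises in bulk knockout, 6 rises in bulk 2i, 1 rise and 20 falls in plates of knockout, and 1 rise and 40 falls in plates of 2i. Without the filter on low values bulk 2i had 10 rises and 6 falls, and without the trend 6 rises and 2 falls. Leaving out each library in turn gave 11 to 13 falls in bulk 2i, and 54 to 56 falls and 10 to 13 rises in bulk knockout. With a median over cells the plates had 0 rises in knockout and 0 in 2i, and with quantile normalisation 1 rise in 2i.

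Excess variability over genes of like level in NPCs was -0.33; it was -0.27 with a pseudocount of 10 TPM and -0.22 with a narrower running median. With TPM rescaled so that the members had an equal total in every cell, the excess was -0.66 in NPCs, -0.28 in knockout, -0.15 in 2i, and -0.54 and -0.38 in serum. That scaling takes out variation that the members share, so a more negative value is in part built in. Reversed were Rpl10l in bulk knockout, at -0.18 after centring and -0.00245 after quantile normalisation (adjusted p = 0.363 and 0.991), Rpl39l in bulk knockout, at -0.57 (adjusted p = 0.0400) after quantile normalisation, and Rpl3l in plates of 2i, at -0.48 (adjusted p = 0.00973) after centring.

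The bulk serum and knockout libraries share the numbers 1 and 2, but the labels tie no number to a culture; same-numbered deviations correlated at -0.0255. With a replicate block 54 members fell and 13 rose in knockout. Centring on short proteins was not run. Leaving out a plate leaves no residual degrees of freedom, so those fits gave differences with no test.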
